A study of Mus musculus with 24 samples.

Results

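Transcripts of 38 mouse genes for the repair of DNA double-strand breaks and of DNA crosslinks were followed through the stimulation of macrophages. The genes were chosen by symbol and found in the count tables through their Ensembl identifiers in GENCODE M21, and all 38 of them were among the 12765 genes tested, out of 43629 identifiers. The set holds 17 genes of homologous recombination and end processing, 5 of the Fanconi pathway, 7 of end joining and 9 of damage signalling. The macrophages were grown for 7 days from the marrow of wild-type C57BL/6 mice in medium with 20 ng/mL CSF-1, which macrophages need for growth and survival, and all groups kept CSF-1 throughout. Cells received lipopolysaccharide (LPS, a bacterial wall component), LPS with 50 ng/mL interferon gamma (LPS+IFNg) or 20 ng/mL interleukin 4 (IL-4), or were left unstimulated. They were taken after 1 h or 18 h, and each of the 8 groups had 3 libraries of polyadenylated RNA, 24 in all. For LPS the labels name doses of 20 and 100 ng/mL and tie neither to a group. They do not say whether the 3 libraries of a group came from separate mice or cultures. The p-values set a difference between groups against the spread among libraries within groups, and that spread may be only technical. The age and sex of the mice are not given in the labels.

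A double-strand break can be rejoined directly, by the Ku proteins, DNA-PKcs, Artemis and ligase IV, or copied from the sister chromatid by homologous recombination. Recombination needs the ends to be cut back by the MRN complex with CtIP and EXO1, and then BRCA1, BRCA2 and PALB2 for the search of the sister; it works in the S and G2 phases of the cell cycle, when a sister is present. Crosslinks that block a replication fork are recognised by the Fanconi core complex, which marks FANCD2 and FANCI with ubiquitin, while the kinases ATM and ATR announce breaks and stalled forks to CHEK2 and CHEK1. Many genes of recombination are transcribed under E2F factors as cells enter S phase.

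Total counts ran from 4181890 to 8122945 per library, and levels are given as CPM, the read count relative to a library total that TMM scaling has adjusted for differences in composition between libraries. All 8 macrophage markers were tested, and their summed level was 10200 to 25660 CPM in every library, with Csf1r at 1242 to 2206 CPM. The sum differed by group at 18 h without overlap. It was 24280 to 25660 CPM with LPS, 12470 to 12810 with LPS+IFNg, 10200 to 10640 with IL-4 and 14660 to 16460 in unstimulated cells. The 3 T cell markers together reached 0.204 CPM at most, the 3 B cell markers 1.13 CPM and the 3 mast cell markers 1.23 CPM, with Cd3e and Hbb-bs at 0 counts in all libraries. The 5 neutrophil markers summed to 24.1 to 45.6 CPM with LPS+IFNg at 18 h and to 65.2 to 159 CPM in the other groups, nearly all of it from S100a8 and S100a9. The 3 dendritic markers summed to 8.52 to 12.1 CPM with LPS+IFNg at 18 h and to at most 7.51 CPM elsewhere. The 4 fibroblast markers summed to 3.73 to 7.19 CPM with LPS at 18 h and to at most 2.65 CPM elsewhere. The part of these markers in the results was not tested. Replicate 2 of LPS at 18 h stood apart from its replicates (8.65 and 10.7 chi-square per gene, against 2.32 between the other two), and so did replicate 2 of IL-4 at 18 h (6.97 and 4.32, against 3.1). Leaving these libraries out together left every member count below except that of the IL-4 time interaction within 1.5 times its value.

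The promoter windows of 2 genes with deep falls at 18 h and of 2 that were higher are shown first, with the letters that E2F factors are known to bind. Each window runs from 250 bases before to 50 bases after the RefSeq start, on the gene's own strand in GRCm38.p6. Capitals mark the E2F letters, searched on both strands as 4 words, which were TTCCCGC, then TTGGCGC, then TTCGCGC, and then TTGCCGC. Rad51ap1 (chr6:126939538-126939837, minus strand) and Chek1 (chr9:36726609-36726908, minus strand) fell steeply with LPS and LPS+IFNg, and Fanca (chr8:123318527-123318826, minus strand) and Dclre1c (chr2:3423881-3424180, plus strand) were higher at 18 h in LPS+IFNg cells.
Rad51ap1: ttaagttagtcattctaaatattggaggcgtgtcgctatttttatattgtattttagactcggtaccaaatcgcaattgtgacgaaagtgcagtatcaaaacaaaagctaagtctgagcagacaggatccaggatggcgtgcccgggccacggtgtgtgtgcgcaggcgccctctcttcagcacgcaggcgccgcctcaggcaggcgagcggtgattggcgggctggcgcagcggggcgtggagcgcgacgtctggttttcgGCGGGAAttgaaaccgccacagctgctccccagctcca
Chek1: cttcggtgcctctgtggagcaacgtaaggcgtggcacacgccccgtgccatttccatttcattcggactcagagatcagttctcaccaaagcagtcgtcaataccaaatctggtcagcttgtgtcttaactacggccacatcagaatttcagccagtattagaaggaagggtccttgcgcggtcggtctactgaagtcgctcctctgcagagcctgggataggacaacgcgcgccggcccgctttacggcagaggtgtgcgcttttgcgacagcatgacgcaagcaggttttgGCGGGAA
Fanca: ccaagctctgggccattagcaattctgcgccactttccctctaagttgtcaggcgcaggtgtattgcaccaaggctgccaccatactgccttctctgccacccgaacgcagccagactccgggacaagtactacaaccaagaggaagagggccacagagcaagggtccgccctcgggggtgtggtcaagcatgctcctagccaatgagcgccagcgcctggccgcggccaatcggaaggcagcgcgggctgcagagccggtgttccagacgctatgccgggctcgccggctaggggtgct
Dclre1c: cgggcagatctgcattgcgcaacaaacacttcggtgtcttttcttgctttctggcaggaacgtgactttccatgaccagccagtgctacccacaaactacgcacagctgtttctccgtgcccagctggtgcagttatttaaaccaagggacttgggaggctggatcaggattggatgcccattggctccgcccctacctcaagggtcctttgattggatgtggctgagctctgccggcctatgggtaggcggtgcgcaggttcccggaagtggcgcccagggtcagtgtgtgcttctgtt
Rad51ap1 and Chek1 each held the letters once, starting 12 and 43 bases after the start. The Fanca and Dclre1c windows held none of the 4 words, which says only that these letters are not in these windows. The letters did not divide the set by call at 18 h with LPS. The windows of Lig4 and Xrcc4, which were not called, held them. Those of Atr, Eme1, Mre11a, Palb2, Rad54l, Trp53bp1, Xrcc3 and Xrcc5, all called lower, did not. These letterless genes kept 23.5% (Xrcc5) to 74.7% (Trp53bp1) of their unstimulated mean with LPS. Every gene with a window that kept less, from 0.924% (Rad51ap1) to 21.5% (Fanci), held the letters. So did Atm, Mdc1, Xrcc6 and Chek2, which kept 34.9% to 42%. A relation of the letters to the size of the fall was not tested. Windows were found for 28 of the 38 genes, 31 windows in all, and 19 of the 31 (61.3%) held the letters, against 72.2% of the windows of the S phase list and 9.57% of all 32851 windows. None was found for Rad54b, Exo1, Fancd2, Xrcc2, H2afx, Rad50, Prkdc, Nbn, Rif1 or Rbbp8. Of these, Rad54b, Exo1 and Fancd2 kept at most 1.69% of their unstimulated mean with LPS. The CHR word TTTGAA, found in 66.7% of the windows of 12 G2 and mitosis genes, was in 2 of the 31 (6.45%) and in 17.9% of all windows. CCAAT, which can share letters with TTGGCGC read on the other strand, was in 54.8% of the members' windows and 37.4% of all windows. A match is a description of letters and not of a bound factor.

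In unstimulated macrophages at 18 h all 38 genes were detected, at group means of 3.09 to 136.9 CPM. Per kilobase of exon, H2afx, which encodes the histone that is phosphorylated around breaks, was highest at 38.3 CPM per kb. Topbp1, the activator of ATR, came next at 12.2, and Eme1, a subunit of a junction-cutting nuclease, and Mdc1, the reader of phosphorylated H2AX, followed at 10.6 and 10.5 CPM per kb. Eme1, at 29.2 CPM, shares exon bases on the opposite strand with Lrrc59 and Mrpl27, at 215.5 and 31.7 CPM. The strand setting of the counting is not given. The lowest were Rad51c, which acts with Xrcc3 in strand exchange, at 1.20 and Xrcc5, which encodes Ku80, at 1.21 CPM per kb, while Xrcc6, which encodes its partner Ku70, stood at 7.80 CPM per kb. The ATM and ATR kinase genes stood at 2.84 and 1.31 CPM per kb. The length used is that of all annotated exons of a gene merged, 10338 bases for Atm and 23629 for Atr, which can exceed that of 1 transcript. Without it the 2 genes overlapped, at 28 to 32 CPM for Atm and 29 to 34 CPM for Atr.

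**Figure D1:**
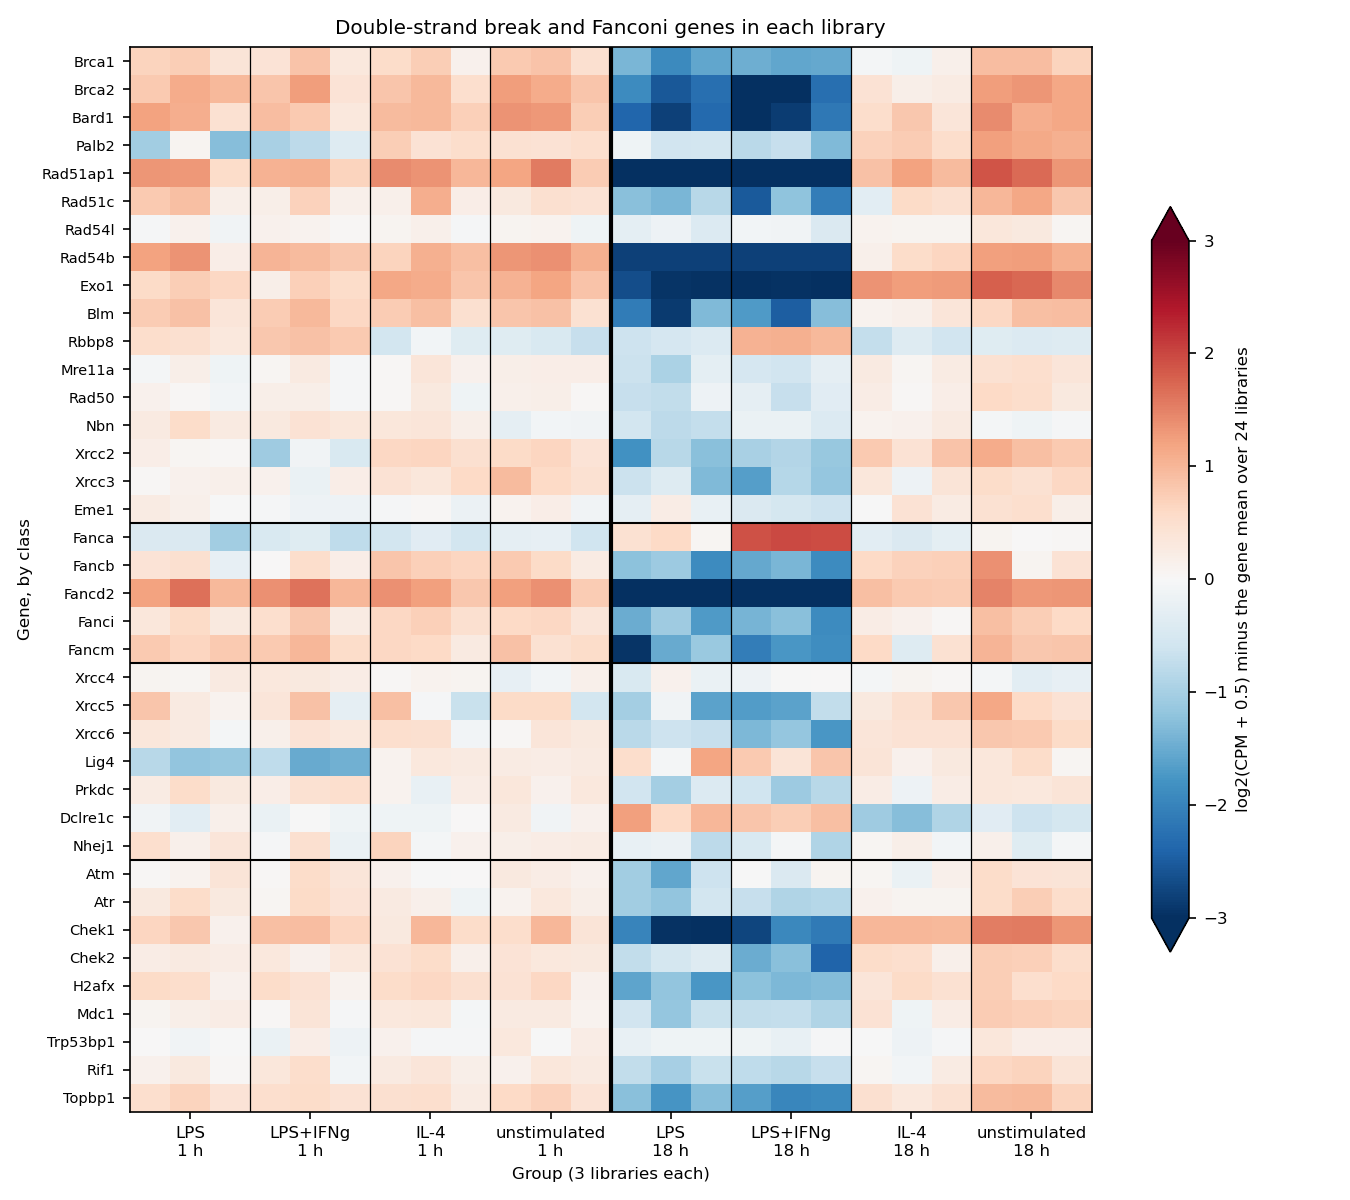
Level of each of the 38 genes (rows, by class from recombination at the top through Fanconi and end joining to signalling) in each of the 24 libraries (columns, 3 per group), as log2(CPM + 0.5) minus the gene's mean over all libraries; the scale ends at 3 in each direction. The libraries of LPS and LPS+IFNg at 18 h are blue for most genes, Fanca and Rbbp8 are red with LPS+IFNg at 18 h, and Dclre1c is red in both groups.

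After 18 h, most of the set had fallen with LPS, alone or with interferon gamma, and far less with IL-4. With LPS, 32 of 38 genes fell and 2 rose, where 63.1% of all tested genes were called, 31.3% lower and 31.8% higher (edgeR quasi-likelihood test, called at a Benjamini-Hochberg adjusted p below 0.05). With LPS+IFNg, 31 fell and 3 rose, against 72.2% of all tested genes called, 36.1% in each direction. With IL-4, 23 fell and 0 rose, where 39.2% of all tested genes were called, 20.1% lower and 19.0% higher; at an unadjusted p under 0.05, 1 was higher, and DESeq2 also called 0 higher. The median log2 change of the 38 genes was -1.53 with LPS, -2.03 with LPS+IFNg and -0.38 with IL-4, against a median over all tested genes of 0.0060, -0.0046 and -0.0056 in the same order. These comparisons share the same 3 unstimulated libraries. In bulk RNA, fewer cells of a type, such as cells in cycle, and less RNA per cell cannot be told apart.

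Genes of the cell cycle moved with them. Of 20 S phase genes 20 fell with LPS and 20 with LPS+IFNg at 18 h, as did 16 of 16 genes of G2 and mitosis, and with IL-4 18 of 20 and 16 of 16 fell. The G2 and mitosis genes summed to 66.3 to 69.1 CPM in LPS libraries, 103 to 109 CPM with LPS+IFNg and 972 to 1003 CPM with IL-4, against 1645 to 2037 CPM in unstimulated cells. The S phase genes summed to 519 to 618, 558 to 578 and 2095 to 2309 CPM in the stimulated groups, in the same order, against 2592 to 3020 CPM. Their part in the falls of the repair genes was not tested.

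**Figure D2:**
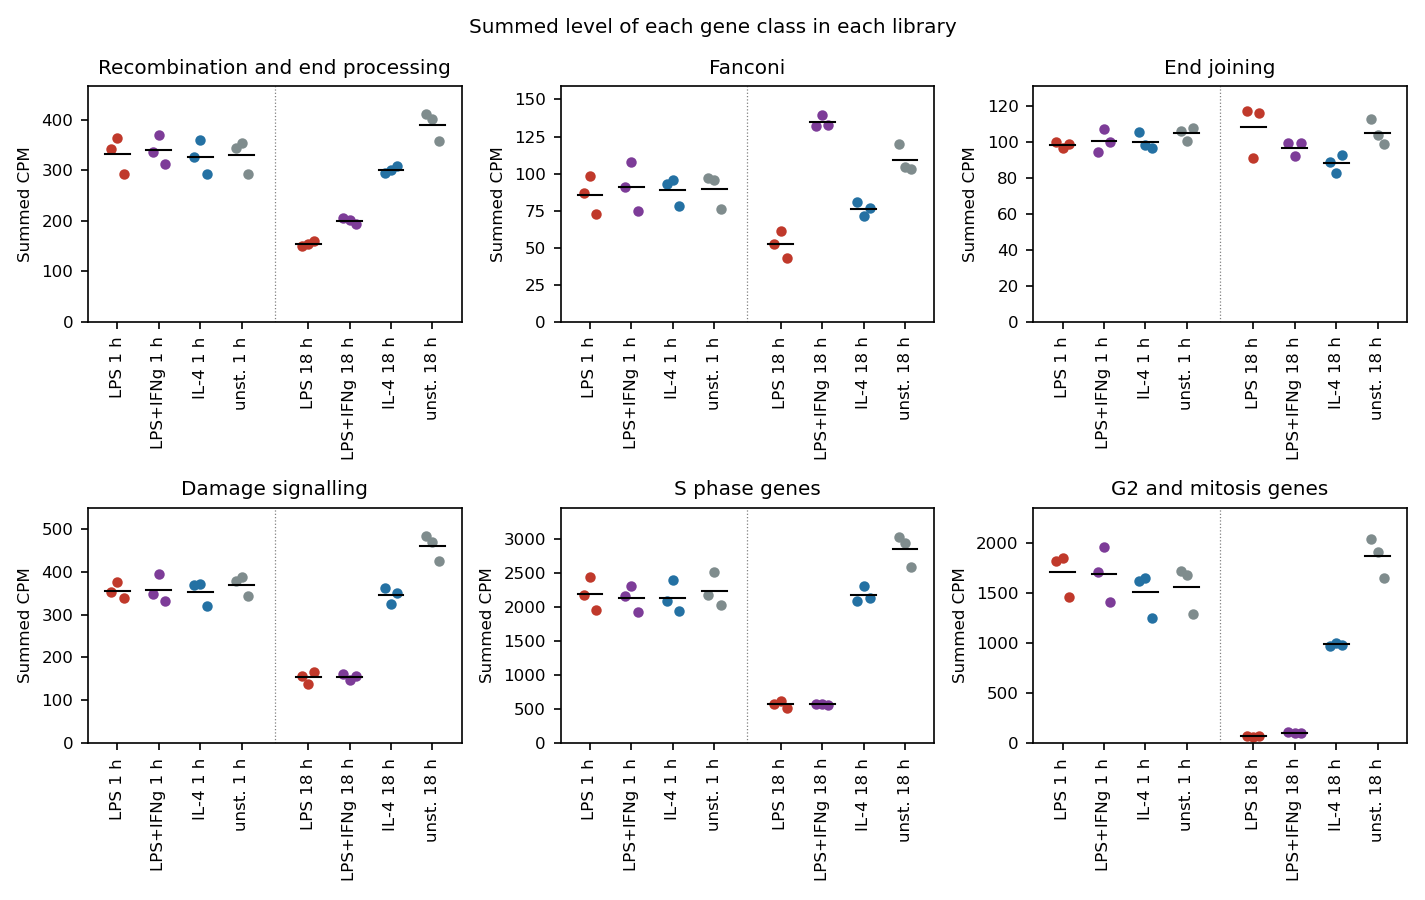
Summed CPM of each class of genes and of the S phase and the G2 and mitosis lists in each library (points) with the group mean (line), at 1 h left of the dotted line and at 18 h right of it; unst. stands for unstimulated. At 18 h the recombination genes summed to 150 to 160 CPM with LPS against 358 to 412 CPM in unstimulated cells, while the end joining sums overlapped between these groups, at 91.1 to 117 against 98.6 to 112 CPM. Of the end joining sums Dclre1c, which rose, gave 45.5 to 71.5 CPM with LPS against 19.4 to 23.7 CPM. In the same comparison 3 genes of that class were called lower without overlap.

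**Figure D3:**
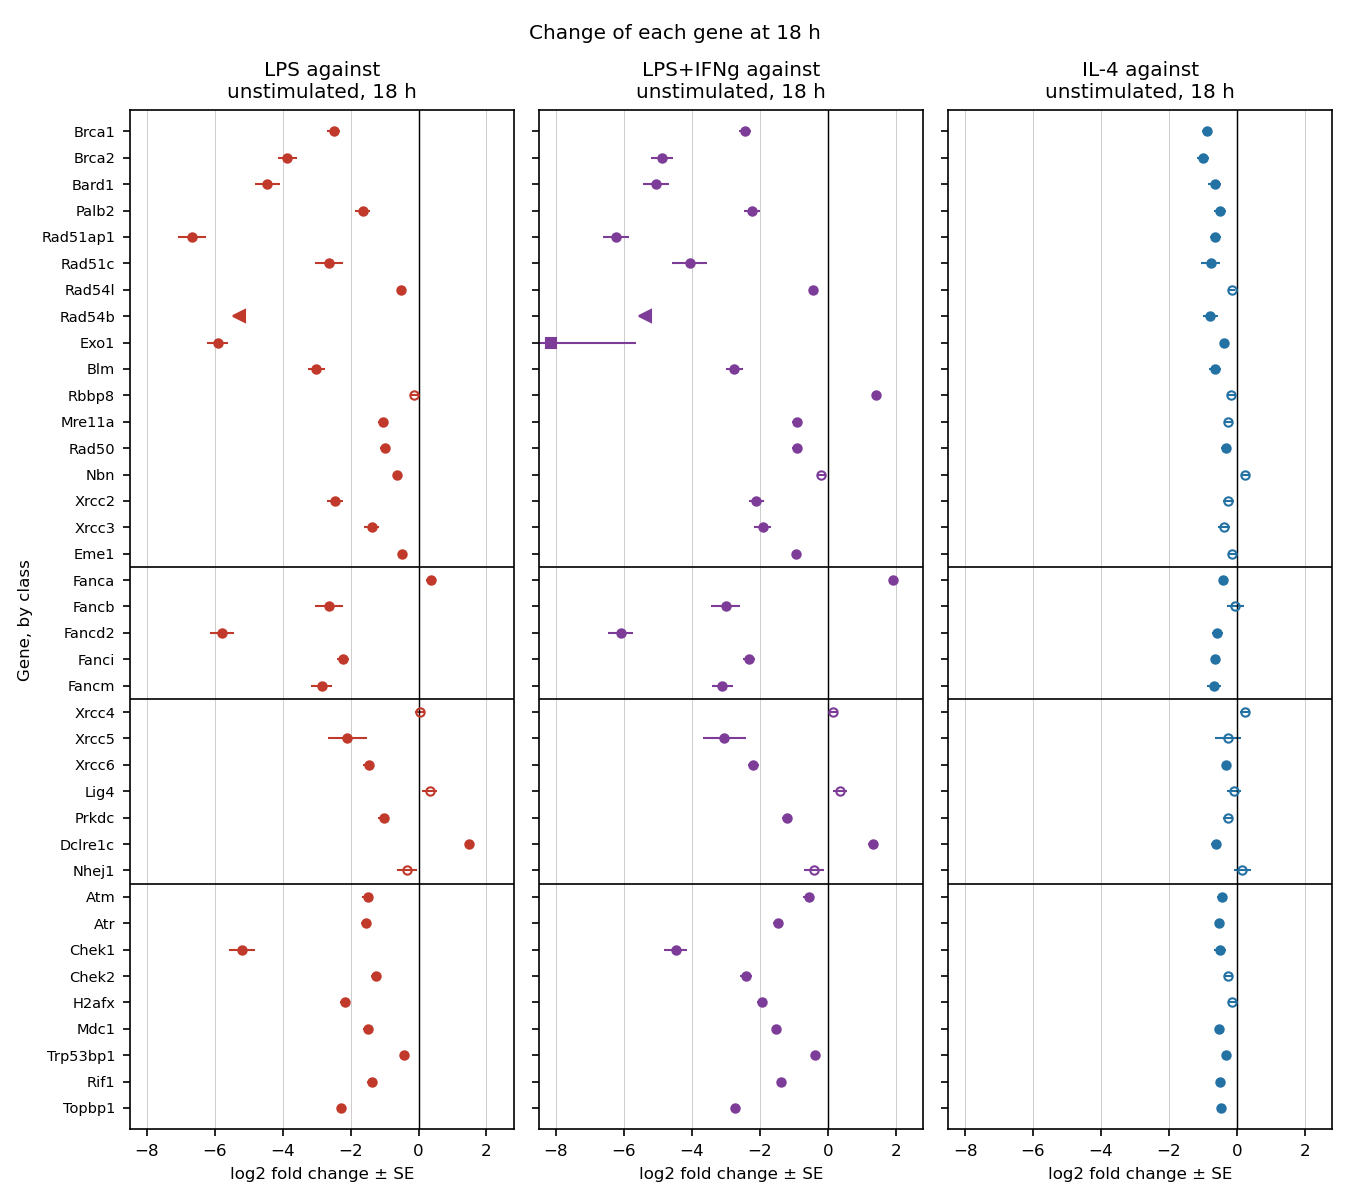
Fitted log2 fold change at 18 h (points, with bars of 1 SE) of each gene by class, for LPS, LPS+IFNg and IL-4 against unstimulated cells; filled points are called and open points are not. The triangles for Rad54b mark lower bounds on the fall (0 counts in the stimulated group), and the square for Exo1 with LPS+IFNg is a count ratio (1 count) whose 95% interval runs past the left edge. Dclre1c and Fanca lie right of 0 with LPS and LPS+IFNg, Fanca with LPS only under composition scaling.

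Most recombination genes fell with LPS and LPS+IFNg. At 18 h 16 of 17 fell with LPS, with a class median of -2.45 on the log2 scale, 15 of 17 with LPS+IFNg (-2.23) and 10 of 17 with IL-4 (-0.37). Of all tested genes 31.3%, 36.1% and 20.1% were called lower, in the same order. The medians stayed the same with Rad54b set at its bound. Rad51ap1 (chr6:126923050-126939587), whose product helps pair DNA strands, had 0.178, 0.417 and 0.189 CPM in the 3 LPS libraries and 0.310, 0.569 and 0.189 CPM with LPS+IFNg, against 33.4, 29.1 and 22.4 CPM in unstimulated cells. It kept 16.4, 20.7 and 17.1 CPM with IL-4. No stimulated library reached the lowest unstimulated one, and the LPS-containing groups held 1 to 3 reads a library. The change was -6.68 ± 0.41 (log2 ± SE, adjusted p = 1.28e-14) with LPS, -6.24 ± 0.38 (6.35e-15) with LPS+IFNg and -0.63 ± 0.17 (0.00425) with IL-4.

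Rad54b, a helper of strand exchange, had 0 counts in all 6 libraries of LPS and LPS+IFNg at 18 h, against 45, 52 and 43 counts in unstimulated cells and 24, 41 and 32 counts with IL-4. With a floor of 3 counts over a group, which covers counting error only, the level was at least 38.6-fold lower with LPS and at least 41.8-fold lower with LPS+IFNg than in unstimulated cells. Of its 5782 exon bases 2068 are shared on the same strand with Fsbp, which had at most 0.780 CPM in any library at 18 h. Its paralog Rad54l had 37.7, 41.7 and 34.6 CPM with LPS and 43.5, 42.5 and 34.1 CPM with LPS+IFNg, against 58.1, 57.0 and 47.6 CPM in unstimulated cells. Rad54l thus fell by 0.52 ± 0.10 (adjusted p = 5.54e-05) and 0.43 ± 0.10 (0.00028) on the log2 scale, its groups without overlap but close to each other. Rad54l shares 1184 of 7706 exon bases with Lrrc41 on the opposite strand, which was higher at 18 h (0.66 ± 0.08 with LPS and 0.80 ± 0.08 with LPS+IFNg, adjusted p = 7.82e-08 and 8.88e-10), and how the counting used strand is not given in the sources used here.

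Exo1, the exonuclease of long-range end resection, had 2, 1 and 1 counts with LPS and 0, 1 and 0 with LPS+IFNg, against 107, 116 and 91 counts in unstimulated cells; IL-4 cells had 96, 112 and 83. With LPS the change was -5.91 ± 0.31 (adjusted p = 2.63e-16). With LPS+IFNg the ratio of counts per scaled library was 0.00356 (exact 95% interval 8.98e-05 to 0.0200). Blm, the helicase that works beside it, had 2.13, 1.04 and 3.97 CPM with LPS and 2.95, 1.52 and 4.17 CPM with LPS+IFNg, against 16.9, 20.6 and 21 CPM in unstimulated cells, a change of -3.01 ± 0.26 and -2.75 ± 0.25.

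The breast cancer genes and their partners fell together in the LPS groups. Brca1 had 9.42, 6.25 and 8.13 CPM with LPS, 8.69, 8.15 and 8.33 CPM with LPS+IFNg and 23.9, 22.7 and 27.9 CPM with IL-4, against 48.3, 47.7 and 40.3 CPM in unstimulated cells. Brca2 had 1.60, 0.834 and 1.14 CPM with LPS, 0.466, 0.190 and 1.14 CPM with LPS+IFNg and 10.0, 8.24 and 8.70 CPM with IL-4, against 17.9, 18.9 and 16.9 CPM. For both, each stimulated library lay below each unstimulated one, and the IL-4 libraries lay between. Brca1 kept 17.5% of its unstimulated mean with LPS, 18.5% with LPS+IFNg and 54.7% with IL-4, and Brca2 kept 6.63%, 3.33% and 50.1%. Bard1, which forms the ubiquitin ligase with BRCA1, fell by 4.45 ± 0.37 with LPS and 5.05 ± 0.39 with LPS+IFNg on the log2 scale, and Palb2, the bridge between BRCA1 and BRCA2, changed by -1.65 ± 0.21 and -2.23 ± 0.23. Among the helpers of strand exchange, Rad51c fell by 2.64 ± 0.42 and 4.07 ± 0.51, Xrcc2 by 2.45 ± 0.24 and 2.11 ± 0.22, and Xrcc3 by 1.38 ± 0.22 and 1.92 ± 0.24. Rad51c held only 4, 3 and 6 reads with LPS and 0, 4 and 1 reads with LPS+IFNg.

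The MRN complex, which holds and trims broken ends, moved little by comparison. Mre11a, its nuclease, kept 47.8% of the unstimulated mean with LPS and 53.2% with LPS+IFNg, and Rad50, its tether, kept 50.2% and 53.1%. Both fell in each of these comparisons, Mre11a by 1.06 ± 0.13 and 0.91 ± 0.13 and Rad50 by 0.99 ± 0.14 and 0.91 ± 0.14 (adjusted p between 3.97e-08 and 9.1e-07). Nbn, the subunit that binds MDC1 and ATM, had 14.0, 11.9 and 12.5 CPM with LPS, 18.2, 18.2 and 15.5 CPM with LPS+IFNg and 22.7, 23.1 and 25.4 CPM with IL-4, against 20.0, 19.2 and 20.5 CPM in unstimulated cells. The LPS libraries were the low ones. Nbn fell with LPS (-0.63 ± 0.12, adjusted p = 2.98e-05), while the changes with LPS+IFNg (-0.20 ± 0.11, 0.106) and IL-4 (0.25 ± 0.10, 0.0539) did not pass. Eme1 had 18.3, 26.1 and 19.1 CPM with LPS and 16.3, 15.4 and 14.4 CPM with LPS+IFNg, against 31.0, 31.6 and 25.1 CPM in unstimulated cells, with an overlap between LPS replicate 2 and unstimulated replicate 3. It fell by 0.47 ± 0.13 (adjusted p = 0.00279) and 0.92 ± 0.14 (7.95e-07), and it shares 221 exon bases with Lrrc59 and 75 with Mrpl27 on the opposite strand. Lrrc59 changed by 0.45 ± 0.06 (called) and 0.09 ± 0.06 (not called), and Mrpl27 by 0.72 ± 0.09 and 0.68 ± 0.09 (both called).

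Rbbp8 was the recombination gene that rose at 18 h, and it did so with LPS+IFNg. It encodes CtIP, which starts end resection together with MRN. Its level was 68.0, 69.6 and 65.5 CPM with LPS+IFNg, 21.1, 23.1 and 24.8 CPM with LPS and 19.9, 25.1 and 21.8 CPM with IL-4, against 25.7, 24.9 and 24.9 CPM in unstimulated cells. The 3 LPS+IFNg libraries stood above all others. Its change was 1.43 ± 0.10 (adjusted p = 3.52e-13) with LPS+IFNg, -0.13 ± 0.12 (0.346) with LPS and -0.17 ± 0.11 (0.244) with IL-4.

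In the Fanconi pathway 4 of 5 genes fell at 18 h with LPS and 4 with LPS+IFNg, while Fanca went the other way. The share of all tested genes called lower was 31.3% and 36.1%. The class medians of -2.64 with LPS, -3.0 with LPS+IFNg and -0.57 with IL-4 were below those of the recombination genes. Fancd2, the protein that is ubiquitinated at crosslinks, had 0.711, 0.208 and 0.378 CPM with LPS, 0.310, 0.569 and 0.189 CPM with LPS+IFNg and 18.2, 16.8 and 16.5 CPM with IL-4, against 27.6, 24.5 and 24.6 CPM in unstimulated cells. It held 1 to 4 reads in each LPS-containing library and changed by -5.78 ± 0.36 with LPS (adjusted p = 1.16e-14) and -6.09 ± 0.36 with LPS+IFNg (3.24e-15) on the log2 scale. Its partner Fanci, at 31.1 CPM in unstimulated cells, fell by 2.22 ± 0.17 and 2.31 ± 0.17, and it shares 921 of 5774 exon bases with Polg on the opposite strand (-0.52 ± 0.08 and -0.49 ± 0.08, both called). Fancm, the fork translocase, fell by 2.85 ± 0.31 and 3.10 ± 0.31, and Fancb, a core subunit, changed by -2.64 ± 0.41 and -3.01 ± 0.42. Fancb held only 5, 5 and 2 reads with LPS and 4, 4 and 2 reads with LPS+IFNg. With IL-4, Fancd2, Fanci, Fancm and Fanca fell by 0.40 to 0.66 on the log2 scale. The largest of these, Fancm at -0.66 ± 0.21, was -0.37 (adjusted p = 0.155) without IL-4 replicate 2, a library that stood apart, and 0.0511 was its adjusted p without unstimulated replicate 1.

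Fanca, another core subunit, had 44.4, 49.2 and 33.7 CPM with LPS, 123, 129 and 126 CPM with LPS+IFNg and 25.6, 23.8 and 26.0 CPM with IL-4, against 34.2, 32.2 and 32.8 CPM in unstimulated cells. The LPS+IFNg libraries stood above all others, and LPS replicate 3 overlapped the unstimulated range. With LPS+IFNg it rose by 1.93 ± 0.12 (adjusted p = 3.59e-15). With LPS the change of 0.36 ± 0.13 (0.0146) was -0.065 (0.662) when libraries were scaled by their totals alone, and its adjusted p was 0.0561 without LPS replicate 1 and 0.106 without LPS replicate 2. With IL-4 it fell by 0.40 ± 0.13 (0.0142; 0.0579 without IL-4 replicate 2). Fanca (chr8:123268300-123318576, minus strand) shares 920 of 8761 exon bases with Zfp276 on the opposite strand, and Zfp276 moved with it, at 57.7 CPM with LPS and 100.8 CPM with LPS+IFNg against 29.9 CPM in unstimulated cells (0.95 ± 0.09 and 1.75 ± 0.09, adjusted p = 2.09e-10 and 3.1e-17). Without the strand setting of the counting, reads of the 2 genes in the shared bases cannot be told apart.

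End joining was the class with the fewest changes: 3 of 7 genes fell and 1 rose with LPS and with LPS+IFNg, with class medians of -0.33 and -0.41. Of all tested genes 63.1% were called with LPS, 31.3% lower and 31.8% higher. With LPS+IFNg 72.2% were called, 36.1% in each direction. The class has only 7 genes, and a difference of its shares from these was not tested. Xrcc6 (Ku70) had 11.7, 13.3 and 12.7 CPM with LPS and 7.92, 9.10 and 5.87 CPM with LPS+IFNg, against 37.2, 36.2 and 31.2 CPM in unstimulated cells, a change of -1.47 ± 0.15 and -2.19 ± 0.16 (adjusted p = 7.76e-10 and 4.33e-13). It shares 344 of 4476 exon bases with Desi1 on the opposite strand, which changed less (-0.37 ± 0.10 and -0.82 ± 0.11, both called). Xrcc5 (Ku80), at 3.09 CPM in unstimulated cells, fell by 2.09 ± 0.56 and 3.04 ± 0.64. It held only 3, 7 and 1 reads with LPS and 1, 1 and 4 reads with LPS+IFNg. Prkdc, the DNA-PKcs kinase, fell by 1.02 ± 0.16 and 1.20 ± 0.16. The ligase IV complex and its helper did not pass the test at 18 h in either comparison, with log2 values of 0.03 ± 0.15 and 0.16 ± 0.15 for Xrcc4, 0.33 ± 0.21 and 0.36 ± 0.21 for Lig4, and -0.33 ± 0.29 and -0.41 ± 0.29 for Nhej1, the XLF factor. The Lig4 libraries were uneven with LPS, at 10.7, 6.88 and 17.0 CPM.

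Dclre1c (chr2:3424131-3464130, plus strand) rose. It encodes Artemis, the nuclease that opens hairpins and trims ends under DNA-PKcs. Its level was 71.5, 45.5 and 60.9 CPM with LPS, 54.0, 50.3 and 56.2 CPM with LPS+IFNg and 14.2, 12.1 and 15.7 CPM with IL-4, against 23.7, 19.4 and 20.7 CPM in unstimulated cells. All 6 LPS-containing libraries stood above, and all 3 IL-4 libraries below, the unstimulated ones. The change was 1.49 ± 0.13 (adjusted p = 7.37e-11) with LPS, 1.33 ± 0.14 (5.16e-10) with LPS+IFNg and -0.61 ± 0.15 (0.00223) with IL-4. Suv39h2, which shares 357 of its 9316 exon bases on the opposite strand, did not pass in these comparisons (-0.51 ± 0.24, -0.33 ± 0.23 and -0.21 ± 0.21).

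All 9 signalling genes fell at 18 h with LPS and with LPS+IFNg, and 7 of 9 fell with IL-4. Among all tested genes 31.3%, 36.1% and 20.1% were called lower, in the same order. Chek1, the checkpoint kinase downstream of ATR, had 0.889, 0.208 and 0 CPM with LPS, 0.310, 0.948 and 0.757 CPM with LPS+IFNg and 10.4, 10.6 and 10.4 CPM with IL-4, against 15.4, 15.8 and 13.3 CPM in unstimulated cells. It fell by 5.21 ± 0.38 with LPS (adjusted p = 6.1e-13) and 4.47 ± 0.33 with LPS+IFNg (6.64e-13), and no stimulated library reached the unstimulated range. Chek2, the kinase downstream of ATM, kept 8.89, 10.4 and 11.5 CPM with LPS and 5.12, 6.07 and 2.46 CPM with LPS+IFNg, against 25.9, 25.4 and 22.1 CPM, a change of -1.25 ± 0.16 and -2.41 ± 0.18. Atr fell by 1.55 ± 0.15 and 1.46 ± 0.15, and Topbp1 fell by 2.29 ± 0.12 and 2.73 ± 0.12, to means of 27.8 and 20.5 CPM against 136.9 CPM. H2afx fell by 2.16 ± 0.15 and 1.95 ± 0.14. Mdc1 fell by 1.49 ± 0.14 and 1.52 ± 0.14, and Rif1, which protects ends from resection, by 1.38 ± 0.14 and 1.36 ± 0.14. Trp53bp1, the 53BP1 scaffold through which RIF1 acts, had the smallest fall of the class, by 0.42 ± 0.10 (adjusted p = 0.000487) and 0.38 ± 0.10 (0.00106), and kept 74.7% and 76.9% of its unstimulated mean. It shares 2130 of 14164 exon bases with Tubgcp4 on the opposite strand, which did not pass in these comparisons (-0.23 ± 0.11 and 0.05 ± 0.10).

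Interferon gamma added to LPS raised 4 genes and lowered 4 at 18 h relative to LPS alone, where 47.4% of all tested genes were called, 24% higher and 23.4% lower, so the members' share was below that of all genes. Fanca and Rbbp8 were higher by 1.57 ± 0.11 and 1.56 ± 0.11 (adjusted p = 1.55e-12 and 5.36e-13), with levels of each library given above and no overlap. Atm, the kinase of the double-strand break response, had 21.1, 15.7 and 22.5 CPM with LPS+IFNg, against 10.1, 6.88 and 13.8 CPM with LPS, and was higher by 0.94 ± 0.18 (8.79e-05) without overlap. Nbn was higher by 0.43 ± 0.12 (0.00423). Chek2 was lower by 1.16 ± 0.21 on the log2 scale (4.74e-05) and Xrcc6 by 0.71 ± 0.19 (0.0028), both without overlap. The calls of Eme1 (-0.45 ± 0.15, 0.0135) and Topbp1 (-0.44 ± 0.14, 0.0117) as lower were lost when some single libraries were left out. For Eme1 the adjusted p was 0.145 without LPS replicate 2 (at -0.28) and 0.0501 without LPS+IFNg replicate 3. For Topbp1 it was 0.0805, 0.0584 and 0.0542 without LPS replicate 1, LPS replicate 3 or LPS+IFNg replicate 2, at -0.34, -0.37 and -0.38. Of the genes that share exon bases with Eme1, Lrrc59 was also lower (-0.36 ± 0.06, 2.08e-05) and Mrpl27 did not pass (-0.03 ± 0.09). For the genes near 0 in both groups, such as Rad51ap1 and Fancd2, the change could not be measured closely at this depth (0.44 ± 1.14 and -0.32 ± 0.94).

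With IL-4 for 18 h the falls were shallow, from -1.0 to -0.32 on the log2 scale among the 23 called genes. Brca2 (-1.0 ± 0.17, adjusted p = 3.08e-05) and Brca1 (-0.88 ± 0.14, 1.26e-05) fell furthest, and Topbp1, at 105, 93.4 and 102 CPM with IL-4 against 145, 147 and 119 CPM in unstimulated cells, fell by 0.45 ± 0.10 (0.000541). Calls for 13 of the 23 were kept without any single library. The other 10 (Bard1, Palb2, Rad51c, Exo1, Rad50, Fancm, Xrcc6, Atm, Chek1 and Fanca) lost theirs without at least 1 of the 6 libraries, at adjusted p values of 0.0511 to 0.17, and 14 genes were called without unstimulated replicate 1. Set directly against LPS at 18 h, IL-4 left 31 genes higher and 2 lower, where 65.0% of all tested genes were called, 32.9% higher and 32.1% lower. The lower ones were Dclre1c (-2.10 ± 0.14, adjusted p = 6.51e-14) and Fanca (-0.76 ± 0.13, 6.77e-06). Rad54b was at least 22.4-fold higher, and Rad51ap1, Exo1, Fancd2 and Chek1 were higher by 6.05 ± 0.45, 5.54 ± 0.32, 5.20 ± 0.38 and 4.70 ± 0.40 on the log2 scale. Eme1 was higher by 0.33 ± 0.13 (0.0315), with adjusted p values of 0.178 and 0.129 without LPS replicate 1 or 3 and 0.228 and 0.0562 without IL-4 replicate 2 or 3, and its value was 0.20 without IL-4 replicate 2 and 0.50 without LPS replicate 2.

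At 1 h few of these genes had moved. With LPS 2 rose and 3 fell, where 22.2% of all tested genes were called, 10.8% higher and 11.4% lower. With LPS+IFNg 3 rose and 5 fell, against 29.4% of all tested genes called, 14.7% in each direction. With IL-4 1 rose, against 6.49% of all tested genes called and 3.22% called higher. No member was called lower with IL-4 at 1 h (3.27% of all tested genes) by edgeR or DESeq2, and 0 were lower at an unadjusted p under 0.05. Scaled by library totals alone, 2 rose and 9 fell with LPS and 1 rose and 18 fell with LPS+IFNg, and under that scaling the median of all genes was -0.19 and -0.25 on the log2 scale. Summed over the 38 genes, the level at 1 h was 804 to 934 CPM with LPS, 818 to 981 CPM with LPS+IFNg and 787 to 926 CPM with IL-4, against 820 to 938 CPM in unstimulated cells, and all 4 ranges overlapped.

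Rbbp8 and Nbn rose early. Rbbp8 had 48.0, 46.0 and 41.5 CPM with LPS and 58.4, 61.4 and 57.1 CPM with LPS+IFNg, against 25.4, 24.1 and 20.1 CPM in unstimulated cells at 1 h, and the groups did not overlap. It rose by 0.95 ± 0.11 (adjusted p = 5.77e-08) with LPS and 1.33 ± 0.11 (1.24e-11) with LPS+IFNg. Set against LPS, LPS+IFNg left Rbbp8 higher by 0.38 ± 0.10 (0.0105), the 1 gene of the set called there (11.8% of all tested genes were called, 6.52% higher and 5.25% lower). That call was lost without LPS replicate 3 (0.0729), without LPS+IFNg replicate 2 (0.0516) and with scaling by library totals (0.30, 0.0597), under which another gene was called lower. Nbn had 25.4, 30.8 and 25.5 CPM with LPS, 25.9, 28.3 and 26.6 CPM with LPS+IFNg and 26.5, 26.9 and 23.6 CPM with IL-4, against 17.4, 19.7 and 19.5 CPM, and every stimulated library stood above every unstimulated one. It rose by 0.53 ± 0.11 with LPS (0.000328), 0.51 ± 0.10 with LPS+IFNg (0.000255; 0.25, 0.0562 with scaling by library totals) and 0.45 ± 0.10 with IL-4 (0.0039). Xrcc4 was higher with LPS+IFNg by 0.37 ± 0.14 (0.047), a call that DESeq2 did not make (0.125) and that was lost without any of the libraries LPS+IFNg 1 to 3 and unstimulated 1 and 2 (0.0698 to 0.233) and with scaling by library totals (0.10, 0.548).

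Lig4 and Palb2 fell early with LPS. Lig4, the ligase that seals joined ends, had 3.87, 2.92 and 3.0 CPM with LPS and 4.08, 2.19 and 2.33 CPM with LPS+IFNg, against 8.71, 8.52 and 8.82 CPM in unstimulated cells, and 7.77, 9.14 and 8.79 CPM with IL-4. It fell by 1.39 ± 0.29 (adjusted p = 0.000436) and 1.59 ± 0.28 (4.56e-05) on the log2 scale. Palb2 had 2.44, 5.84 and 2.00 CPM with LPS and 2.59, 2.99 and 4.13 CPM with LPS+IFNg, against 7.74, 7.64 and 8.07 CPM, and fell by 1.18 ± 0.25 (0.000633) and 1.26 ± 0.24 (0.000128). For both genes the LPS-containing libraries lay below the unstimulated ones, with LPS replicate 2 of Palb2 nearest to them, without which the Palb2 change with LPS was -1.79. Xrcc3 fell by 0.62 ± 0.20 with LPS (0.0218) and 0.67 ± 0.19 with LPS+IFNg (0.00767), and these calls were lost without LPS replicate 1 or 2 (0.0777 and 0.0533) or LPS+IFNg replicate 2 (0.053), and without unstimulated replicate 1 in both (0.171 and 0.085). With LPS+IFNg, Xrcc2 fell by 1.15 ± 0.22 (9.18e-05) and Exo1 by 0.58 ± 0.17 (0.00819; 0.0811 without LPS+IFNg replicate 1 and 0.0516 without unstimulated replicate 2).

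**Figure D4:**
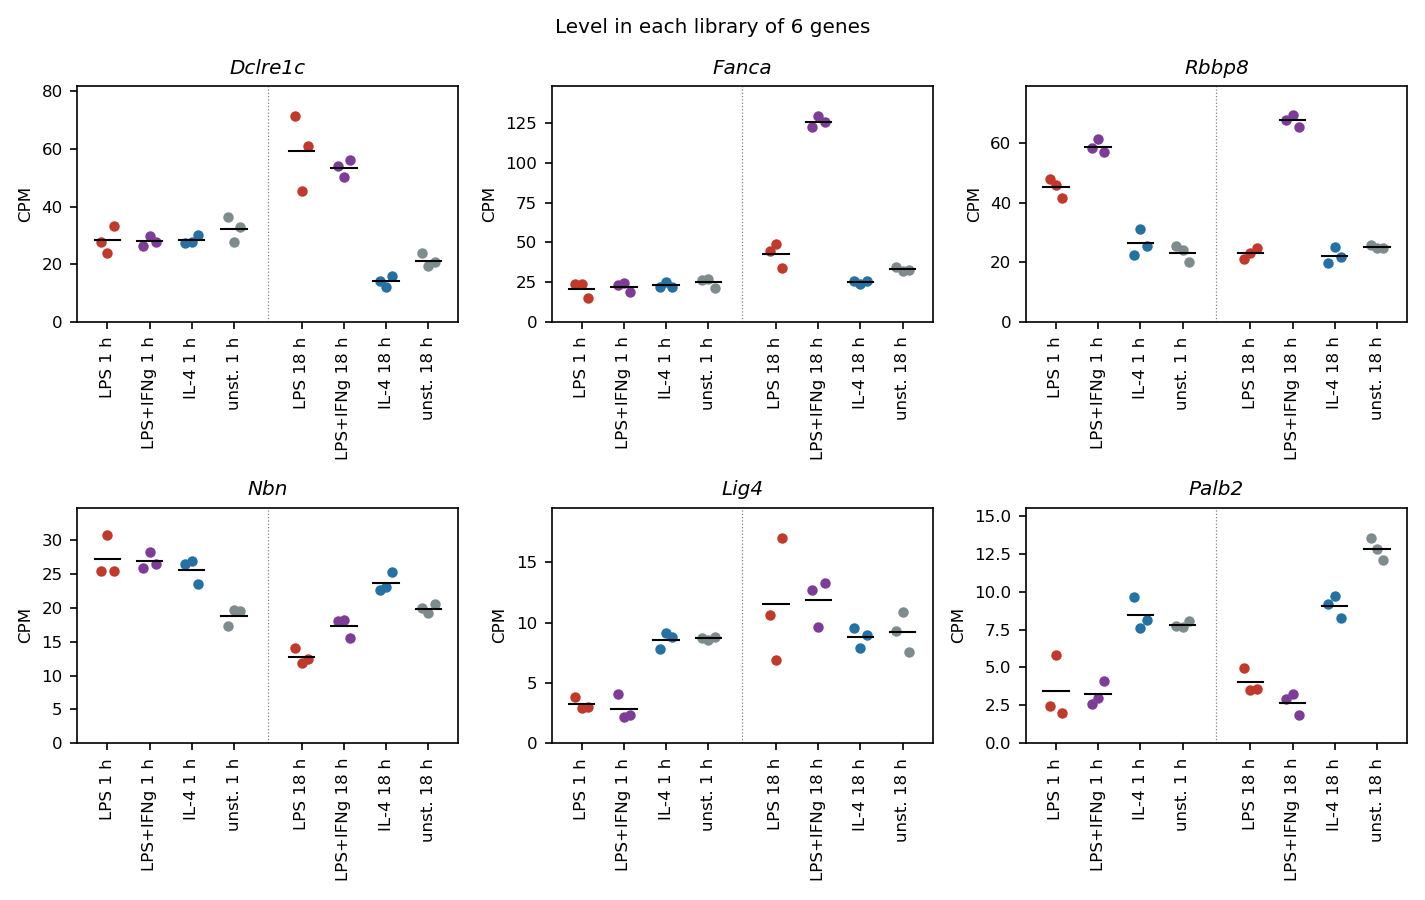
CPM of 6 genes in each library (points, 3 per group) with the group mean (line), at 1 h left of the dotted line and at 18 h right of it; unst. stands for unstimulated. Dclre1c and Fanca are high at 18 h in LPS-containing groups (Fanca with LPS only under composition scaling), Rbbp8 at 1 h in both groups and at 18 h with LPS+IFNg, and Lig4 is low with LPS and LPS+IFNg at 1 h, at 2.19 to 4.08 CPM against 8.52 to 8.82 CPM.

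The response at 18 h differed from that at 1 h for most of the set. The interaction of LPS with time was called for 34 genes, 31 lower and 3 higher, where 54.2% of all tested genes were called, 27.2% lower and 27.0% higher. That of LPS+IFNg with time was called for 34, 31 lower and 3 higher, against 64.0% of all tested genes, 32.2% lower and 31.8% higher. The higher ones were Dclre1c (1.68 ± 0.20 with LPS and 1.55 ± 0.19 with LPS+IFNg), Fanca (0.61 ± 0.19 and 2.11 ± 0.18) and Lig4 (1.72 ± 0.36 and 1.95 ± 0.35). The Fanca value for LPS was 0.38 (adjusted p = 0.105) with scaling by library totals. Rbbp8 was lower at 18 h than at 1 h in its response to LPS (-1.08 ± 0.16, adjusted p = 1.77e-06), while in its response to LPS+IFNg the difference was 0.09 ± 0.15 (0.602). For IL-4 the interaction was called lower for 6 genes (21.5% of all tested genes were called, 11.4% lower and 10.1% higher), namely Brca1, Brca2, Rad51ap1, Fanci, Mdc1 and Rif1, between -0.71 and -0.53, and the count ran from 1 to 10 when single libraries were left out. It was 1 without unstimulated 18 h replicate 1 or IL-4 1 h replicate 2, 2 without IL-4 18 h replicate 2, IL-4 1 h replicate 1, unstimulated 18 h replicate 2 or unstimulated 1 h replicate 3, and 10 without IL-4 1 h replicate 3.

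Culture time alone moved some of the genes. In unstimulated cells at 18 h against 1 h, 8 genes were higher and 1 lower, where 12.0% of all tested genes were called, 4.00% higher and 8.01% lower. Chek1 had 15.4, 15.8 and 13.3 CPM at 18 h against 7.46, 10.4 and 6.76 CPM at 1 h and was higher by 0.84 ± 0.19 (adjusted p = 0.0039) without overlap. Palb2 was higher by 0.71 ± 0.18 (0.0083), Exo1 by 0.64 ± 0.14 (0.00252) and Mdc1 by 0.51 ± 0.13 (0.00688). Of the others, Xrcc6, Atr, Fanca and Topbp1 lay between 0.30 and 0.50 and lost their calls without at least 1 library (0.0615 to 0.247), and 5 genes were called without replicate 1 of either group. Dclre1c was the lower one, by 0.61 ± 0.14 on the log2 scale (0.00408). Of the 20 S phase genes 16 were higher at 18 h in the same comparison, and their part in it was not tested.

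A further 89 genes of the same pathways were listed, of which 86 were tested. With LPS at 18 h 38 of the 86 fell and 10 rose, with LPS+IFNg 41 fell and 18 rose, and with IL-4 31 fell and 4 rose, set against the same shares of all genes as above. Their median log2 change was -0.28 with LPS, -0.26 with LPS+IFNg and -0.17 with IL-4. Clspn, the adaptor that couples ATR to CHEK1, had 0.694 ± 0.171 CPM with LPS, 0.0632 ± 0.11 CPM with LPS+IFNg and 30.3 ± 0.916 CPM with IL-4, against 64.7 ± 6.3 CPM in unstimulated cells (SD, n = 3). It fell by 6.49 ± 0.29 with LPS (adjusted p = 5.57e-18), and Fignl1, an ATPase of recombination, fell by 5.25 ± 0.30 and 6.01 ± 0.33 with LPS and LPS+IFNg. Gen1, a resolvase of recombination junctions, fell by 5.02 ± 0.39 with LPS.

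Among the risers of that list, Cyren, an inhibitor of end joining in the S and G2 phases, reached 195.6 ± 24 CPM with LPS and 664.3 ± 21 CPM with LPS+IFNg, against 41.9 ± 6.21 CPM in unstimulated cells (SD, n = 3), a change of 2.22 ± 0.10 and 3.99 ± 0.10. It shares 2168 of 4269 exon bases with Tmem140 on the opposite strand, which changed by 2.28 ± 0.11 and 4.03 ± 0.11. As the strand setting of the counting is not given, reads of the 2 genes in the shared bases cannot be told apart. Top3a, the topoisomerase that works with BLM, was higher with LPS+IFNg at 1 h (1.31 ± 0.10) and at 18 h (1.30 ± 0.09), and Rmi2, a subunit of the same complex, was higher with IL-4 at 18 h (1.93 ± 0.25, adjusted p = 4.44e-07) at 8.23 ± 0.853 against 2.15 ± 0.490 CPM. Polm, a polymerase of end joining, was higher with LPS at 18 h (0.65 ± 0.17). Against LPS alone, LPS+IFNg left Dna2, a resection nuclease, higher by 2.25 ± 0.19 and Hus1, a subunit of the checkpoint clamp, by 2.00 ± 0.16. At 1 h Etaa1, an activator of ATR, fell by 1.43 ± 0.19 with LPS and 1.31 ± 0.18 with LPS+IFNg, and Rmi1, a partner of RMI2, fell by 1.27 ± 0.12 with LPS+IFNg.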

How the data were processed

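Each of the 24 libraries had 1 table deposited by the authors, with the number of reads per Ensembl gene as whole, unscaled counts. STAR, featureCounts, DESeq2 and deepTools, with the build GRCm38, are named by the submitters' processing notes, without versions. Which annotation release and strand setting were used is not given in the sources used here. The kit was stranded, per the labels' protocols. Identifiers were named by GENCODE M21.

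Low genes were removed by group with filterByExpr at a minimum count of 10, library totals were adjusted by TMM, and 1 model over the 8 groups was estimated in edgeR 4.0.16 (R 4.3.3). Quasi-likelihood tests, two-sided, were adjusted by Benjamini-Hochberg over 12765 genes, for 10 comparisons of groups and 3 interactions with time. The fit was also run on simulated counts drawn with its own estimates of spread. These held no link between same-numbered libraries and no large shift in composition, so they do not test the fit on either. Log2 changes are fitted values with SE. A floor of 3 counts per group was used where a group had 0 counts, and an exact 95% interval of the ratio for 1 to 3 counts; both cover counting error only. Gene overlaps were counted in exon bases of M21.

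The members and gene lists were chosen with earlier results of these data known. All 38 members were open to naming, and of the other pathway genes up to 4 called in each direction with the largest change and at least 1 CPM. Some genes that this rule takes are not reported here. Replicate numbers were checked for pairing: same-numbered libraries deviated together with correlations over 0.1 in all 3 pairs for IL-4 against unstimulated cells at 1 h (0.133, 0.231 and 0.164) and for IL-4 against LPS at 18 h (0.147, 0.427 and 0.125), and not in all 3 pairs for the other comparisons. Over all groups 34 of 84 same-numbered pairs were over 0.1 (mean 0.0767), against 6 of 168 pairs with different numbers (mean -0.0382). The labels do not say what a number marks. No 2 libraries agreed within sampling noise. Alternatives were median-of-ratios and library-size scaling, no count filter, DESeq2 1.42.0, models of only the groups compared, the replicate number as a block, an adjusted p of 0.01 as the limit, each library left out in turn, and 2 pairs of libraries left out together. Promoter sequences were taken from RefSeq windows of GRCm38.p6, for 28 of 38 members.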

Additional observations from a re-analysis of the deposited data

Results flagged for a closer look

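The time interactions of all 3 stimuli were set apart whatever their counts. Each tests the difference between the responses at 18 h and at 1 h itself. The count of the 38 members called was 34 for LPS and 34 for LPS with interferon gamma, where 54.2% and 64.0% of all tested genes were called. For IL-4 it was 6, a share of members below the 21.5% of all tested genes, and it ran from 1 to 10 when single libraries were left out. Nbn stood out because its response to LPS changed direction with time, at 0.53 ± 0.11 on the log2 scale after 1 h and -0.63 ± 0.12 after 18 h, a difference of -1.16 ± 0.16 (edgeR quasi-likelihood test, Benjamini-Hochberg adjusted p = 3.94e-07). In its response to LPS with interferon gamma the difference was -0.71 ± 0.15 (0.000172).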

How the results depend on the processing

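Across 230 called results of single members and 3779 values under alternatives, 3594 kept the call and 184 lost it, while 1 changed sign: Fanca with LPS at 18 h under library-size scaling, at -0.065. Of the 230, 195 kept the call under every alternative run. Median-of-ratios scaling and the replicate block kept all 230; with the replicate block the count was 1 for IL-4 against unstimulated cells at 1 h and 33 for IL-4 against LPS at 18 h, as without it. Counts of members called moved by over 1.5 times as follows; except for library-size scaling, where a shift of the median of all genes goes with it, the cause was not tested. At an adjusted p of 0.01 the count was 14 for IL-4 at 18 h, 1 for the IL-4 interaction, 0 for LPS+IFNg against LPS at 1 h and 5 for unstimulated cells at 18 h against 1 h. Library-size scaling gave 11 for LPS and 19 for LPS+IFNg at 1 h, and moved the median of all genes by -0.41 for LPS, -0.54 for LPS+IFNg and -0.07 for IL-4 at 18 h and by 0.36 for IL-4 against LPS. It called 1 member higher and 35 lower for LPS and 3 and 34 for LPS+IFNg at 18 h, and at 1 h 0 higher and 1 lower for LPS+IFNg against LPS. Without LPS 18 h replicate 2 and IL-4 18 h replicate 2 together the IL-4 interaction was called for 3. With single libraries left out, counts ran from 4 to 6 for LPS and 6 to 9 for LPS+IFNg at 1 h, 1 to 1 for IL-4 at 1 h, 33 to 34 for LPS, 34 to 34 for LPS+IFNg and 14 to 23 for IL-4 at 18 h, 0 to 1 and 7 to 8 for LPS+IFNg against LPS at 1 h and 18 h, 32 to 35 for IL-4 against LPS, 5 to 11 for culture time, and 31 to 34, 33 to 34 and 1 to 10 for the interactions of LPS, LPS+IFNg and IL-4. With 3 libraries a group and 0 to 5 reads a library left in deep falls (Rad54b, Exo1, Rad51ap1, Fancd2, Chek1 and Bard1), depth limits how closely their size at 18 h is known. The same limit holds for Brca2, Rad51c, Xrcc5 and Fancb, with 0 to 9 reads a library left in the LPS-containing groups.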

Other observations

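Slx4 and Faap24, other genes of the same pathways, fell at 1 h with LPS, and their responses at 18 h differed from those at 1 h. Slx4, the scaffold of junction nucleases, stood at 13.6 ± 1.26 CPM with LPS at 1 h against 27.0 ± 2.09 CPM in unstimulated cells (SD, n = 3 each), a change of -0.98 ± 0.13 (edgeR, Benjamini-Hochberg adjusted p = 5.42e-07), while its value of 0.01 ± 0.11 at 18 h did not pass, and its interaction with time was 0.99 ± 0.17 (1.5e-05). Faap24, which binds FANCM, changed by -0.82 ± 0.24 with LPS at 1 h (0.0112), and its interaction with time was 1.06 ± 0.31 with LPS (0.00463) and 1.38 ± 0.30 with LPS+IFNg (0.000226). At 18 h, Smc5, a subunit of the SMC5/6 complex, was higher with LPS+IFNg, at 101.9 ± 4.94 against 46.8 ± 2.23 CPM in unstimulated cells (1.12 ± 0.10, adjusted p = 5.05e-11).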
